A study of Mus musculus with 6 samples.

Results

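The endothelial and VEGF genes described here are 10 genes of renal blood vessels, chosen by name: Vegfa, Flt1, Kdr, Tek, Eng, Pecam1, Cdh5, Emcn, Ehd3 and Plvap. Each was matched by its symbol in the table of expression values, and all 10 were found, each once, among 19176 rows. They were compared between mice with unilateral ischemia-reperfusion injury given vehicle (UIRI group) and injured mice given Bruceine A (UIRI + BA group), with 3 biological replicates and 3 libraries in each group. Both groups were male wild-type C57BL/6J mice, 8 weeks old when bought, in which a clamp closed the pedicle of the left kidney for 35 min. Vehicle (5% ethanol in saline) or BA at 1 mg/kg was injected intraperitoneally every day for 14 days, the right kidney was removed on day 13, and renal cortex was taken on day 14. BA is a quassinoid from the plant Brucea javanica, and the library labels spell its name as brucine A. No sham library is part of this comparison, so it does not show what injury itself did to these genes.

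VEGF-A is a secreted growth factor that endothelial cells need to survive and to form vessels. In the kidney it is made mainly by podocytes and tubule cells, and it acts on the endothelium next to them through the tyrosine kinase receptors VEGFR2 (Kdr) and VEGFR1 (Flt1). Loss of peritubular capillaries is a known feature of kidneys that scar after ischemia, and glomerular and peritubular endothelium both carry the pores, or fenestrae, that filtration and reabsorption depend on.

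The values are normalized counts, which are reads on a gene divided by a size factor of the library. Reads on genes numbered 18683621, 18684293 and 38124164 in UIRI replicates 1, 2 and 3. They numbered 16510720, 19725912 and 20313529 in UIRI + BA replicates 1, 2 and 3. UIRI replicate 3 stood apart from the rest of its group: its reads were 2.04 times the median of the remaining 5 libraries. On the first principal component, which held 41.8% of the variance, it lay at 11.1, where UIRI replicates 1 and 2 lay at -32.5 and -25.5 and the UIRI + BA libraries at 30.5, 3.11 and 13.4. Fits without it are given beside the results that they move most. The range behind the median of a list is that of the medians in the 6 fits without 1 library.

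By limma, fitted to all rows, 0 of the 10 genes reached an adjusted p below 0.05. The same held for the whole table (0.0% of genes, smallest adjusted p 0.225), where limma gave 1971 genes an unadjusted p below 0.05. On the recovered reads, edgeR's quasi-likelihood test called 0 genes, with 1703 at an unadjusted p below 0.05. DESeq2 called 213 genes, 1.49% of those it gave an adjusted p, and 0 of these were among the 10. At an unadjusted p below 0.05, limma picked 1 of the 10, Vegfa, where the background share is 10.3% (5.67% higher and 4.61% lower with BA). The groups did not overlap in the same 1 of 10 genes, against 14.4% of all genes. Both counts lie near or below their background. Of the 10 genes, 4 were higher and 6 lower with BA, and their median log2 fold change was -0.01, as it was for all genes (-0.01). In the plot of the 10 genes by library, the points of both groups lie at like heights in most panels.

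**Figure D1:**
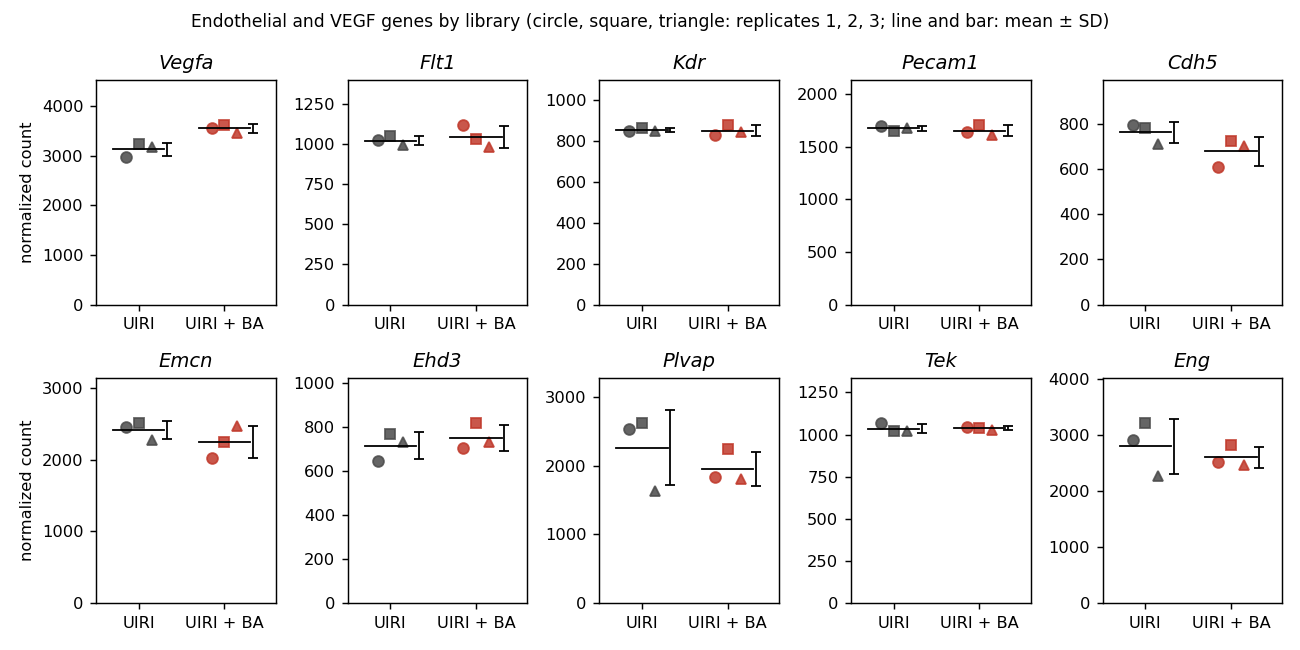
Normalized counts (vertical axis, from 0) of the 10 genes in the UIRI (gray) and UIRI + BA (red) groups, with replicates 1, 2 and 3 as circle, square and triangle and the mean and SD of 3 libraries as line and bar. Vegfa is the 1 gene whose groups do not overlap. UIRI replicate 3 lies below UIRI replicates 1 and 2 for Flt1, Cdh5, Emcn, Tek, Plvap and Eng, most of all for Plvap and Eng.

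Promoter sequences were looked up because endothelial genes are known targets of ETS factors and Vegfa of hypoxia-inducible factors. The set of RefSeq promoters searched (GRCm38.p6) held one for 7 of the 10 genes and had no entry for Cdh5, Pecam1 and Plvap. The 250 bases before the start site are printed for the ligand, both of its receptors and endoglin, 5′ to 3′ on the strand of the gene, with every AGGAAG (a form of the ETS site, searched on both strands, so CTTCCT on the other) in capitals; the shorter GGAA shared by ETS sites was not counted. They lie at chr17:46032378-46032627 (Vegfa, minus strand), chr5:147726012-147726261 (Flt1, minus strand), chr5:75978456-75978705 (Kdr, minus strand) and chr2:32646345-32646594 (Eng, plus strand).
Vegfa: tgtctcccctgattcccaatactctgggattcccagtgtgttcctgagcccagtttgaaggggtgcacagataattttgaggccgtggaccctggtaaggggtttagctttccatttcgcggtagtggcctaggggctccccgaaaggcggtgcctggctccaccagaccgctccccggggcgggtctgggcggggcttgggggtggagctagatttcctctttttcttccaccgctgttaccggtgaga
Flt1: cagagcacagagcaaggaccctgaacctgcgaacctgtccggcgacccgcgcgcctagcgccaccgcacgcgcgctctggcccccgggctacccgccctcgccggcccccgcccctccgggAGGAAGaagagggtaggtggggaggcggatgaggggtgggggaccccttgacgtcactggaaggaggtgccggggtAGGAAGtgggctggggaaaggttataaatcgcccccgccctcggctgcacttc
Kdr: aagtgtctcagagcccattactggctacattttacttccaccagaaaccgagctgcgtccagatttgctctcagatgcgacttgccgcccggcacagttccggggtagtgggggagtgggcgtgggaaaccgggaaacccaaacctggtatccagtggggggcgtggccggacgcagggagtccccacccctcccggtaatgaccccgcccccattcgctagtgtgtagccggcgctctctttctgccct
Eng: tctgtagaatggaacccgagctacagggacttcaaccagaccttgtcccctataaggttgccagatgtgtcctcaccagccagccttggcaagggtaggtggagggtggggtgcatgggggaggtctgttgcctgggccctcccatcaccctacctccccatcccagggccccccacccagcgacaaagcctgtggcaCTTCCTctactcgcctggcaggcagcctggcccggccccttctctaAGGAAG
AGGAAG stood 2 times in the Flt1 promoter, beginning at positions -129 and -53 from the start, and 2 times in that of Eng, at -52 and -6. Emcn also held 2, and Vegfa, Kdr, Tek and Ehd3 held 0. Of 32851 RefSeq promoters of this length, 29.5% held AGGAAG. The core of hypoxia response elements, ACGTG on either strand, was in 16.6% of them and in none of the 4 promoters printed. It stood 1 time in a further Vegfa entry, which starts inside the gene. Such a match describes the letters in this window and shows no binding.

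Vegfa, which encodes the ligand VEGF-A, read 2972, 3236 and 3178 normalized counts in UIRI replicates 1 to 3 against 3560, 3627 and 3464 in UIRI + BA replicates 1 to 3. Every UIRI + BA library lay above every UIRI library. The mean was 3129 ± 139 (SD, n = 3) in UIRI against 3551 ± 81.8 (SD, n = 3) in UIRI + BA. This is a log2 fold change of 0.18 (standard error 0.07, 95% interval 0.02 to 0.34), or 13.5% more (1.69 to 26.8%), with an unadjusted p of 0.0284 and an adjusted p of 0.448 from limma. An exact two-sided permutation test gave p = 0.1, the smallest that 3 against 3 libraries allow. In the fits without 1 library the fold change lay between 0.15 (UIRI replicate 1 left out) and 0.21 (UIRI replicate 2 left out), and was 0.20 without UIRI replicate 3. The unadjusted p from limma was 0.121, 0.0571 and 0.0972 without UIRI replicate 1, UIRI + BA replicate 1 or UIRI + BA replicate 2, and 0.0514 with quantile normalization, so the side of 0.05 on which it falls depends on these choices. The libraries held 2623 to 5803 Vegfa reads, enough for a counting error of 1.31 to 1.95%. A gene count does not separate the splice forms of Vegfa.

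In bulk cortex, a change in the number of cells that make a transcript and a change in the RNA each cell makes cannot be told apart. Markers of the epithelia known to make VEGF-A are therefore given beside Vegfa. Of 10 proximal tubule markers, 10 were higher with BA, 8 of them at an unadjusted p below 0.05 by limma (5.67% of all genes). The 8 were 5 without UIRI replicate 1 or UIRI replicate 2, 9 without UIRI replicate 3, and 6 with DESeq2 or edgeR. The median log2 fold change of these 10 was 0.68 (range 0.52 to 0.88). DESeq2 gave 4 of the 10 an adjusted p below 0.05 (1.49% of all genes given one), and limma 0, or 8 without UIRI replicate 3 (962 of all genes). The summed normalized counts of the proximal tubule markers were 55488, 62964 and 70124 in UIRI against 75428, 86388 and 130650 in UIRI + BA, and no marker was at 0. These sums rest largely on Kap, which averaged 39519 over all libraries. Kap was not among the 8, and its log2 fold change ran from 0.14 to 0.89 without 1 library. The podocyte list of 7 markers, led by Podxl and with none at 0, held 1 higher and 6 lower genes and a median of -0.09 (range -0.23 to -0.01). Podocyte markers summed to 12294, 13739 and 12042 in UIRI against 12242, 14148 and 10921 in UIRI + BA, so the groups overlapped. The part of either cell type in the higher Vegfa was not tested.

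The receptors lay close together in the groups. Kdr encodes VEGFR2, the main signaling receptor, and its normalized counts were 849, 864 and 850 in UIRI against 828, 880 and 842 in UIRI + BA. UIRI + BA replicates held both the lowest and the highest value, with the UIRI libraries between them. The log2 fold change was -0.01 (standard error 0.07, 95% interval -0.17 to 0.16, adjusted p of 0.976 in limma), which leaves room for a change of -11.4 to 11.7%. Flt1 encodes VEGFR1, which binds VEGF-A tightly but signals weakly and is also made as a soluble trap. It read 1023, 1047 and 992 in UIRI against 1120, 1028 and 982 in UIRI + BA, and of the UIRI + BA libraries only replicate 1 lay above the UIRI range. Its log2 fold change was 0.03 (standard error 0.08, 95% interval -0.15 to 0.21, adjusted p of 0.904 in limma), and -0.02 without that library. The soluble and membrane forms of Flt1 are counted together. Vegfa reads per Kdr read, a ratio chosen after the values were seen, numbered 3.502, 3.75 and 3.74 in UIRI against 4.30, 4.12 and 4.11 in UIRI + BA, again without overlap. Per Flt1 read the groups overlapped, with 2.90, 3.09 and 3.20 Vegfa reads in UIRI against 3.18, 3.53 and 3.53 in UIRI + BA.

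In the VEGF family, of 10 ligands, receptors and coreceptors in the table, 3 were higher and 7 lower with BA, and the median log2 fold change was -0.05 (range -0.10 to 0.01). Without UIRI replicate 2 the balance turned to 6 higher and 4 lower. Unadjusted p was below 0.05 in limma's test for Vegfa alone (10.3% of all genes). The lymphatic growth factor Vegfc, named after its values were seen, was lower without overlap, at -0.27 (adjusted p of 0.546 in limma), and ran from -0.36 to -0.13 in fits without 1 library. Among VEGF receptor signaling genes, such as Plcg1, Src and the MAP kinases, 9 were higher and 8 lower, with a median of 0.02 (range -0.04 to 0.04). The 1 of these 17 with an unadjusted p below 0.05 (10.3% of all genes) was Prkcb, a protein kinase C isoform, at a log2 fold change of -0.27 (adjusted p of 0.472 in limma). Prkcb did not pass without UIRI replicate 1, UIRI replicate 2, UIRI + BA replicate 1 or UIRI + BA replicate 3 (unadjusted p up to 0.139 in limma). Without UIRI replicate 3, 4 of the 17 were higher and 2 lower at that p (25.2% of all genes). In that fit, 1 of the 17 was among the 962 genes with an adjusted p below 0.05.

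Tek encodes TIE2, the receptor of the angiopoietins that keeps vessels quiescent. Its normalized counts were 1068, 1020 and 1019 in UIRI against 1047, 1039 and 1025 in UIRI + BA. The values of UIRI + BA all fell inside the UIRI range, and the highest of the 6 was 1.05 times the lowest. The log2 fold change was 0.00 (standard error 0.07, 95% interval -0.16 to 0.16, adjusted p of 0.992 in limma), and its sign turned with upper quartile scaling or quantile normalization. The ligand Angpt2, which endothelial cells release on activation and which mostly opposes TIE2 signaling, read 262, 263 and 255 in UIRI against 203, 210 and 216 in UIRI + BA. All UIRI + BA libraries lay below all UIRI libraries. Angpt2 stood at a log2 fold change of -0.31 (standard error 0.10, unadjusted p 0.0135, adjusted p of 0.388 in limma), between -0.33 and -0.29 with each library left out in turn. It was the 1 gene of 6 in the angiopoietin and TIE list with an unadjusted p below 0.05 by limma (10.3% of all genes). The list held 3 higher and 3 lower genes, with a median of -0.05 (range -0.05 to -0.02).

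Eng encodes endoglin, a coreceptor for BMP9 and BMP10 that works with the endothelial receptor ALK1. It read 2907, 3208 and 2256 in UIRI against 2510, 2815 and 2458 in UIRI + BA. UIRI replicate 3 was the lowest of all 6 libraries, and UIRI replicates 1 and 2 were the highest. With all libraries the log2 fold change was -0.09 (standard error 0.13, adjusted p of 0.801 in limma). It was -0.24 without UIRI replicate 3 (unadjusted p 0.0182, adjusted p of 0.122 in limma) and turned to 0.02 without UIRI replicate 2. Eng shares up to 61 bases of exon with Fpgs on the other strand, whose reads could be told apart only if counting used the strand, which the sources used here do not state. Of 10 endoglin and ALK1 pathway genes in the table, 2 were higher and 8 lower with BA (median -0.11, range -0.17 to -0.07). Without UIRI replicate 3, 4 of them were lower and 1 higher at an unadjusted p below 0.05 by limma (25.2% of all genes, 11.5% lower), and 1 was among the 962 genes of the table with an adjusted p below 0.05 in that fit. Smad6, an inhibitor of BMP signaling, was the 1 with an unadjusted p below 0.05 by limma with all 6 libraries (10.3% of all genes). Its log2 fold change was -0.39 (adjusted p of 0.486 in limma). Without 1 library it ran from -0.53 to -0.24, with an unadjusted p from limma of up to 0.180. The unadjusted p of Smad6 was 0.0702 with DESeq2 and 0.0675 with edgeR.

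Pecam1 and Cdh5 encode adhesion molecules of endothelial cell contacts, CD31 and VE-cadherin. Pecam1, which leukocytes and platelets also carry, read 1697, 1653 and 1677 in UIRI against 1636, 1710 and 1616 in UIRI + BA. The UIRI libraries lay within the range of UIRI + BA. Its log2 fold change was -0.02 (standard error 0.07, 95% interval -0.17 to 0.14, adjusted p of 0.932 in limma). Cdh5 read 795, 781 and 709 in UIRI against 606, 725 and 700 in UIRI + BA. The UIRI + BA libraries were mostly lower, with replicate 2 just above UIRI replicate 3. The log2 fold change of Cdh5 was -0.17 (standard error 0.10, 95% interval -0.39 to 0.05, adjusted p of 0.559 in limma). Without UIRI + BA replicate 1, its lowest library, it was -0.09, and without UIRI replicate 3 it was -0.22 (unadjusted p of 0.0443 in limma).

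A list of 23 further pan-endothelial genes, which leaves out the 10, lay lower with BA for the most part. All 23 were in the table and none was at 0 in any library. With BA, 4 were higher and 19 lower, where 51.1% of all genes were lower. Their median log2 fold change was -0.11, against -0.01 over all genes, and it was -0.13 with upper quartile scaling and -0.14 with quantile normalization (range -0.18 to -0.05). At an unadjusted p below 0.05, limma placed 5 of the 23, all lower (4.61% of all genes). Cldn5, the tight junction claudin of endothelium, read 343, 300 and 217 in UIRI against 177, 236 and 194 in UIRI + BA, for a fold change on the log2 scale of -0.49 (adjusted p of 0.442 in limma). UIRI replicate 3 again lay among the UIRI + BA libraries. The surface lectin Clec14a had -0.33 and the adhesion molecule Icam2 -0.33, without overlap between the groups in either. Calcrl, the receptor subunit for adrenomedullin, had -0.22 (-0.28 to -0.14 without 1 library), and the junction protein Esam -0.23. The count of 5 lower genes was 9 without UIRI replicate 3 (11.5% of all genes lower there), 1 without UIRI replicate 2, 3 without UIRI + BA replicate 2, and 0 without UIRI replicate 1 or UIRI + BA replicate 1. With all 6 libraries it was 2 with DESeq2 and 4 with edgeR or a replicate block. An adjusted p below 0.05 was reached by 0 of the 23 with all 6 libraries in limma, DESeq2 or edgeR, and by 1 in limma without UIRI replicate 3 (962 of all genes). The summed normalized counts of the 23, led by Adgrf5, were 17647, 16513 and 15852 in UIRI against 14921, 15468 and 15694 in UIRI + BA, without overlap by a narrow margin.

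Plvap encodes the protein of the diaphragms that span the fenestrae of peritubular capillaries. Its normalized counts were 2541, 2626 and 1635 in UIRI against 1834, 2248 and 1802 in UIRI + BA. UIRI replicates 1 and 2 were the highest of the 6 libraries, and UIRI replicate 3 was the lowest. Mean values were 2267 ± 550 (SD, n = 3) in UIRI against 1961 ± 248 (SD, n = 3) in UIRI + BA. The log2 fold change was -0.18 (standard error 0.17, 95% interval -0.58 to 0.21, adjusted p of 0.709 in limma). Without UIRI replicate 3 it was -0.40 (standard error 0.10), with an unadjusted p of 0.00257 and an adjusted p of 0.0503 from limma, and the groups no longer overlapped. Without UIRI replicate 2 it was -0.06. Set against Pecam1 in the same library, after the values were seen, Plvap reads per Pecam1 read numbered 1.497, 1.59 and 0.975 in UIRI against 1.12, 1.31 and 1.11 in UIRI + BA, so UIRI replicate 3 was low relative to this endothelial gene as well.

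Emcn encodes endomucin, a sialomucin on capillary and venous endothelium that is high in glomeruli, and it read 2462, 2513 and 2279 in UIRI against 2023, 2242 and 2470 in UIRI + BA. The groups overlapped, with UIRI + BA replicate 3 inside the UIRI range. Its log2 fold change was -0.11 (standard error 0.09, 95% interval -0.31 to 0.09, adjusted p of 0.672 in limma). In fits without 1 library it ran from -0.18 to -0.04. Ehd3 encodes an endocytic protein that marks glomerular endothelium, and it read 647, 767 and 733 in UIRI against 707, 818 and 730 in UIRI + BA. The ranges overlapped widely, for a log2 fold change of 0.07 (standard error 0.10, 95% interval -0.15 to 0.29, adjusted p of 0.800 in limma). It was 0.00 without UIRI replicate 1 and 0.12 without UIRI replicate 2. Of 6 glomerular endothelial genes, Ehd3 among them, 2 were higher and 4 lower with BA (median -0.14, range -0.21 to -0.08), and Smad6 alone passed limma at an unadjusted p below 0.05 (10.3% of all genes). Smad6 did not pass with DESeq2, edgeR, quantile normalization, a filter for rows with at least 1 in each library, or a replicate block. Of 7 peritubular and tip capillary genes, Plvap among them, 2 were higher and 5 lower (median -0.04, range -0.10 to 0.00). Npr3, the natriuretic peptide clearance receptor, which podocytes also make, read 1823, 2081 and 2380 in UIRI against 1766, 1245 and 1217 in UIRI + BA. The groups did not overlap, and its log2 fold change was -0.58 (standard error 0.15, unadjusted p 0.00382, adjusted p of 0.291 in limma). DESeq2 gave Npr3 an adjusted p of 0.0292, the 1 of these 7 below 0.05 (1.49% of all genes given one).

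**Figure D2:**
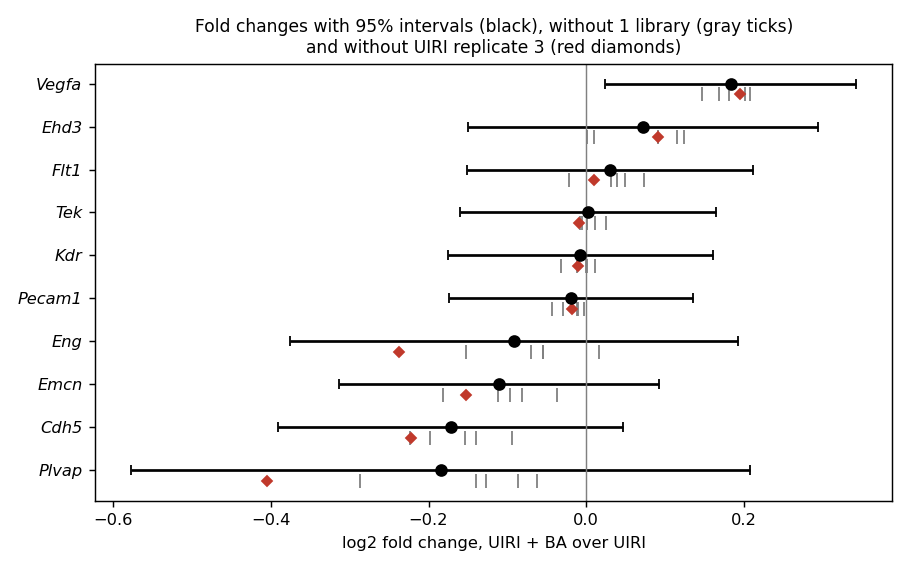
Log2 fold change of UIRI + BA over UIRI (horizontal axis) for the 10 genes, with the 95% interval from limma in black, the values with 1 library left out as gray ticks and those without UIRI replicate 3 as red diamonds. The interval of Vegfa is the 1 that leaves out 0, and Plvap moves most, from -0.18 to -0.40, without UIRI replicate 3.

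Leaving out UIRI replicate 3 changed the count for the 10 genes as well. Without it, 4 of the 10 passed limma at an unadjusted p below 0.05 (25.2% of all genes did): Vegfa higher, and Cdh5, Plvap and Eng lower, 3 of 10 where 11.5% of all genes were lower. The count was 0 without UIRI replicate 1, UIRI + BA replicate 1 or UIRI + BA replicate 2. An adjusted p below 0.05 was reached by 0 of the 10 in each fit without 1 library, although 962 genes of the table reached it without UIRI replicate 3.

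The 10 genes were also ordered by level, as normalized count per kb of exon, since longer genes collect more reads. In UIRI, Plvap was highest at 1141 ± 277 (SD, n = 3), followed by Vegfa at 730 ± 32.4, Eng at 689 ± 120, Emcn at 447 ± 22.8 and Pecam1 at 269 ± 3.51. Below these came Tek at 220 ± 6.00, Cdh5 at 181 ± 11.0, Ehd3 at 109 ± 9.44, Kdr at 94.6 ± 0.935 and Flt1 at 75.6 ± 2.06. Vegfa and Eng were the 1 pair of neighbors whose UIRI libraries overlapped in level per kb. In UIRI + BA the order was the same, from Plvap at 987 ± 125 to Flt1 at 77.3 ± 5.20, and no neighbors overlapped. Both VEGF receptors thus stood at the low end of this scale, per kb of all annotated exons, which can overstate the length of the transcripts present. Flt1 has the longest exon total of the 10, 13504 bases, and Plvap the shortest, 1987 bases.

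**Figure D3:**
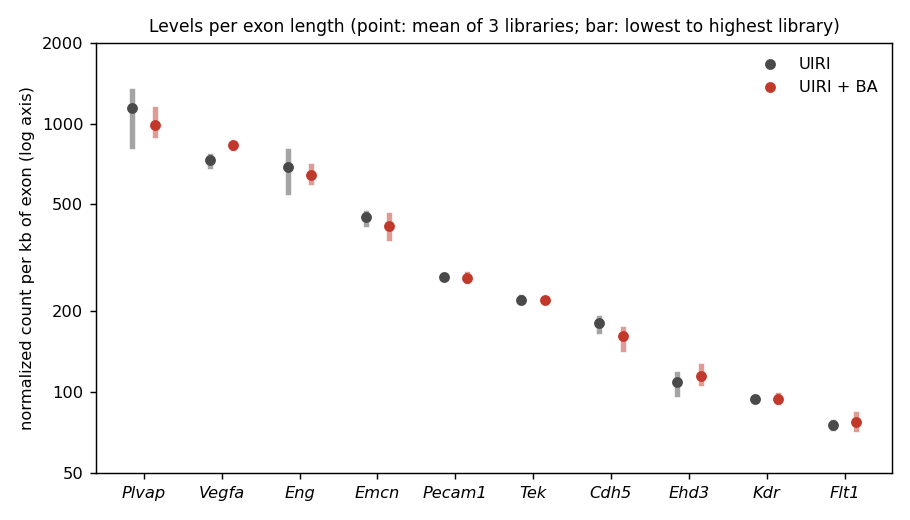
Normalized count per kb of exon (vertical log axis) of the 10 genes in UIRI (gray) and UIRI + BA (red), with the mean of 3 libraries as points and the lowest to highest library as bars. The order is the same in both groups, from Plvap at 1141 and 987 to Flt1 at 75.6 and 77.3.

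The genes differed in how much they varied between mice. For Tek, Pecam1 and Kdr, the highest library was 1.05, 1.06 and 1.06 times the lowest. Only 0.348%, 0.712% and 0.980% of the 12648 genes whose normalized counts averaged at least 100 had a smaller ratio. The SD of Kdr in UIRI was 0.989% of its mean, below the counting error of its reads in a single library (2.54 to 3.89%). At the other end, this ratio was 1.61 for Plvap and 1.42 for Eng, and 87.9% of genes had a smaller ratio than Plvap. The SD of Plvap in UIRI was 24.2% of its mean, with a counting error of 1.83 to 2.61%. Over the 10 genes, the median of this ratio was 1.23, against 1.28 over the genes with a mean of at least 100. UIRI replicate 3 held the lowest value of 3 of the 10 (Plvap, Eng and Tek), as did UIRI + BA replicate 1 of another 3 (Kdr, Cdh5 and Emcn), and UIRI + BA replicate 2 held the highest value of 4.

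Some genes outside the lists followed nearly the same course over the 6 libraries. Nearest to Vegfa among 12647 genes were Sh3rf1, Zfp672 and Gemin5, with root mean square differences of 0.0214, 0.0231 and 0.0266 on the log2 scale after each profile was centered on its mean. Sh3rf1, for example, read 1056, 1188 and 1177 in UIRI against 1323, 1334 and 1279 in UIRI + BA. Nearest to the mean profile of the other 9 genes were Exosc3, Thbs3 and Inpp5k, with differences of 0.0129, 0.0138 and 0.0152.

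Of 8 endothelial activation genes, 4 were higher and 4 lower with BA, and the median log2 fold change was -0.03 (range -0.05 to -0.01). An unadjusted p below 0.05 in limma's test was found for 2 higher and 3 lower genes (5.67% and 4.61% of all genes), the last including Angpt2. These counts were 1 and 1 without UIRI replicate 1, and 2 and 1 without UIRI + BA replicate 1. Vcam1, a leukocyte adhesion molecule that injured tubule cells also make, had normalized counts of 13846, 15765 and 12595 in UIRI against 17766, 17781 and 17980.2 in UIRI + BA. The groups did not overlap, with a log2 fold change of 0.35 (adjusted p of 0.311 in limma). Edn1, the vasoconstrictor endothelin-1, read 625, 630 and 905 in UIRI against 863, 967 and 935 in UIRI + BA. UIRI replicate 3 lay inside the UIRI + BA range, and the log2 fold change was 0.38 (adjusted p of 0.442 in limma), or 0.55 without that library. Vwf, the clotting factor stored in endothelial cells, had -0.59 (adjusted p of 0.397 in limma) and did not overlap. The venular chemokine receptor Ackr1 had -1.25 (adjusted p of 0.389 in limma) and overlapped, at 11.3 to 66.8 normalized counts.

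Of 10 arterial genes, 3 were higher and 7 lower (median -0.15, range -0.18 to -0.07), with Edn1 the 1 at an unadjusted p below 0.05 by limma (10.3% of all genes). This count was 0 without UIRI replicate 1, UIRI replicate 2 or UIRI + BA replicate 2, and 1 lower gene without UIRI + BA replicate 3. Without UIRI replicate 3 it was 2 higher and 1 lower (25.2% of all genes), and 1 was among the 962 genes with an adjusted p below 0.05. Of 7 lymphatic genes, 3 were higher and 4 lower (median 0.00, range -0.11 to 0.06), and none had an unadjusted p below 0.05 by limma, DESeq2 or edgeR. The most abundant lymphatic genes were Pdpn, which podocytes also make, at a log2 fold change of -0.08 (-0.16 to -0.02 without 1 library), and Flt4, the VEGFR3 gene, at -0.09 (-0.19 to 0.02). The hypoxia response list holds regulators and targets of hypoxia-inducible factors, of which Vegfa is itself a target. Of its 16 genes, 10 were higher and 6 lower with BA (median 0.05, range 0.01 to 0.08), and 9 were higher with upper quartile scaling or quantile normalization. With all libraries, 2 were higher and 0 lower at an unadjusted p below 0.05 by limma (5.67% and 4.61% of all genes). This count of 2 was 1 with DESeq2, edgeR or upper quartile scaling, and 3 with quantile normalization. Without UIRI replicate 3, 14 were higher and 2 lower, 5 higher and 1 lower at an unadjusted p below 0.05 by limma (25.2% of all genes), and 2 were among the 962 genes with an adjusted p below 0.05 in that fit. The stress gene Ndrg1 read 16871, 18666 and 19951 in UIRI against 25258, 24672 and 23939.6 in UIRI + BA. It did not overlap, with a log2 fold change of 0.42 (standard error 0.09, unadjusted p 0.00133, adjusted p of 0.240 in limma). DESeq2 gave Ndrg1 an adjusted p of 0.00393, the 1 of the 16 below 0.05 with all libraries (1.49% of all genes given one). Adm, the vasodilator adrenomedullin, read 54.4, 69.7 and 76.7 in UIRI against 76.4, 99.1 and 97.0 in UIRI + BA. UIRI + BA replicate 1 lay just below UIRI replicate 3, and the log2 fold change of Adm was 0.44 (adjusted p of 0.484 in limma).

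**Figure D4:**
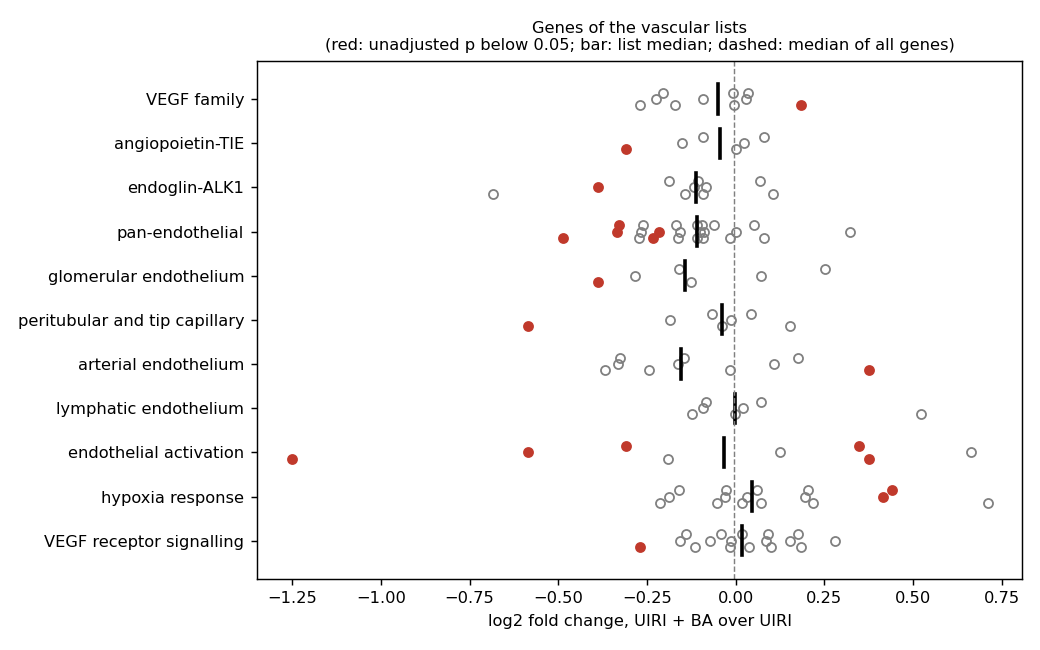
Log2 fold change of UIRI + BA over UIRI (horizontal axis) for each gene of 11 vascular lists, in red where limma's unadjusted p was below 0.05, with the median of each list as a black bar and that of all genes as a dashed line. The pan-endothelial genes lie mostly left of the dashed line (median -0.11), and the activation genes spread to both sides, from Ackr1 at -1.25.

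Other cells of the cortex are given for comparison, and their part in the results above was not tested. Of 9 mural cell markers, 3 were higher and 6 lower with BA (median -0.06, range -0.15 to 0.01). Led by Pdgfrb (-0.20), they held 1 gene, Pdgfrb, at an unadjusted p below 0.05 by limma (10.3% of all genes). Pdgfrb did not pass without UIRI replicate 1, UIRI replicate 2 or UIRI + BA replicate 1. Without UIRI replicate 2, 2 mural markers were higher at that p (711 of 19176 genes). Without UIRI + BA replicate 1, 6 were higher and 3 lower. The mural markers summed to 14100, 14732 and 14218 in UIRI against 12269, 14371 and 14312 in UIRI + BA, with overlap. Leukocyte markers, some of which share cells with Pecam1, were lower in 8 of 8 genes (median -0.22, range -0.29 to -0.13), in 7 with DESeq2 or edgeR and in 6 without UIRI + BA replicate 3. The 1 with an unadjusted p below 0.05 by limma was Itgam (-0.32), where 10.3% of all genes passed. There were 0 without UIRI replicate 1, UIRI replicate 2 or UIRI + BA replicate 3, and 5 without UIRI replicate 3, in a fit where the count of all genes also grew from 1971 to 4838. Of these 5, 2 were among its 962 genes with an adjusted p below 0.05 in limma. Led by Lyz2, they summed to 102458, 93547 and 73748 in UIRI against 75536, 81793 and 69902 in UIRI + BA, again with UIRI replicate 3 inside the UIRI + BA range. Fibroblast markers were lower in 6 of 6 genes (median -0.33, range -0.47 to -0.28), with Pdgfra, Col1a1, Col1a2 and Col3a1 at an unadjusted p below 0.05 in limma's test (4.61% of all genes lower, 3 to 6 of the list without 1 library). Led by Col3a1, they summed to 104812, 86009 and 93486 in UIRI against 63401, 66517 and 83976 in UIRI + BA, without overlap. DESeq2 gave Col1a1 and Col3a1 an adjusted p below 0.05 (1.49% of all genes given one). No marker of these lists was at 0.

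Platelet markers were lower in 4 of 4 genes in the table (median -0.35, range -0.53 to -0.20), with Pf4 (-0.49, or -0.66 to -0.30 without 1 library) and Ppbp (-0.71) at an unadjusted p below 0.05 in limma's test (4.61% of all genes lower), and summed to 481, 364 and 405 in UIRI against 281, 312 and 379 in UIRI + BA. Of these 2 genes, 0 passed without UIRI replicate 1 or UIRI + BA replicate 1, and 1 with DESeq2. Of 5 red blood cell genes, 1 was higher and 4 lower (median -0.17, range -0.39 without UIRI replicate 3 to 0.06 without UIRI replicate 1), led by Hbb-bs at -0.17 (-0.39 to 0.06 without 1 library) and followed by Hba-a1 at -0.27 (-0.55 to -0.07), with sums of 1075, 802 and 577 in UIRI against 843, 691 and 597 in UIRI + BA. The copies of globin genes can share reads. Among injured tubule markers, 5 of 9 were higher (median 0.11, range 0.06 to 0.17). Havcr1 (0.42), Krt20 (0.41) and Vcam1 were higher and Lcn2 (-0.51) and Krt18 (-0.39) lower at an unadjusted p below 0.05 in limma (5.67% and 4.61% of all genes). DESeq2 gave Havcr1, Lcn2 and Krt18 an adjusted p below 0.05 (1.49% of all genes given one). Of 6 thick limb markers 5 were higher (median 0.11), with Egf at 0.53 the 1 below that unadjusted p in limma. The median of this list was 0.27 without UIRI replicate 3 and -0.09 without UIRI replicate 2, when 2 were higher and 4 lower. All 6 collecting duct markers were higher (median 0.25, range 0.12 to 0.51), none below that p in limma's test, with Hsd11b2 at 0.21 (0.06 to 0.43 without 1 library) and Atp6v1g3 at 0.11 (-0.06 to 0.28). Without UIRI + BA replicate 3, 3 of the 6 were below it in limma (1612 of 19176 genes). Without UIRI replicate 3, 2 were (25.2% of all genes), 1 of them among the 962 genes with an adjusted p below 0.05. With all libraries, the proximal tubule genes at an unadjusted p below 0.05 in limma were Slc34a1, Lrp2, Slc5a2, Slc5a12, Slc22a6, Slc22a8, Slc27a2 and Cyp2e1. Urothelium markers, from 0 reads of Krt14 and Upk2 in UIRI + BA replicates 1 and 2, and of Upk3a in the latter, to 217 normalized counts of Krt15 in UIRI replicate 3, summed to 181, 154 and 648 in UIRI against 37.6, 49.5 and 395 in UIRI + BA. Both replicates numbered 3 were thus the high ones. Krt15 and Krt5, the most abundant, had log2 fold changes of -2.70 (-4.48 to -1.44 without 1 library) and -2.16 (-3.56 to -1.23), or -1.01 and -1.28 with DESeq2, and the list a median of -2.01 (range -3.34 to -1.25, -1.26 without UIRI replicate 3) or -1.15 with DESeq2. None of its 8 genes had an unadjusted p below 0.05 in limma, and none in DESeq2, which gave Krt15 no p. Without UIRI + BA replicate 3, 7 did in limma, all lower, where 834 of 19176 genes were lower at that p.

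**Figure D5:**
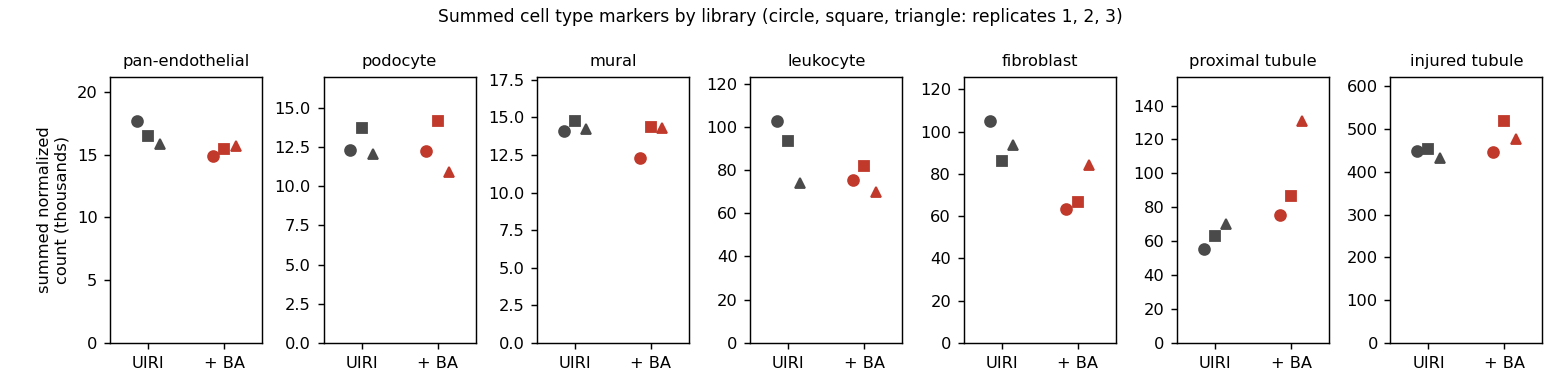
Summed normalized counts (vertical axes, from 0, scale as labeled) of 7 marker lists in the UIRI (gray) and UIRI + BA (red) libraries, with replicates 1, 2 and 3 as circle, square and triangle. The pan-endothelial sums are slightly lower, the fibroblast sums lower and the proximal tubule sums, which rest largely on Kap, higher in UIRI + BA. UIRI replicate 3 has the lowest leukocyte sum of its group.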

How the data were processed

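Poly-A RNA of renal cortex was sequenced by the authors as paired reads of 150 bp. According to the methods, the authors used HISAT2 to align reads, FeatureCounts to count them and DESeq2 to compare groups; the genome build is not given in the sources used here. The labels name a column kit for the RNA and a stranded library kit, and the methods name TRIzol. The authors deposited a signal per gene and library, which is a read count over the size factor of its library. Whole reads were recovered from 100% of these values in each library (tolerance 0.01). The same table gives their fold changes and p-values, and further deposited tables give term enrichment; these columns hold the authors' own comparison and were not used. Rows with fewer than 10 reads in sum were absent.

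limma 3.58.1 (R 4.3.3) was run on log2 of the value plus 1, with an intensity trend, all 19176 rows, no covariate and Benjamini-Hochberg adjustment. Fold changes are on this scale. On recovered reads, DESeq2 1.42.0 and edgeR 4.0.16 were used, and limma, DESeq2 and edgeR were tested on simulated data. Other alternatives were upper quartile scaling, quantile normalization, a pseudocount of 0.1, a filter for rows with at least 1 in each library, a replicate block and each library left out. Exon lengths came from GENCODE release M21 (GRCm38), where 98.02% of symbols matched 1 gene.

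The genes, the marker and pathway lists and the tests were chosen with earlier results of these data known. From each list, genes with an unadjusted p below 0.05 in limma were named, or else the 2 most abundant, and beside these the 3 genes nearest in profile to Vegfa and to the mean of the others; some genes that this rule covers are not reported here. Figf, Gdf2, Bmp10, Gp1bb and Gp9 were listed and not found; Figf is the older symbol of Vegfd.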

Additional observations from a re-analysis of the deposited data

How the results depend on the processing

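Of the 10 genes, 0 had an adjusted p below 0.05 under any alternative run. The count with an unadjusted p below 0.05, 1 with all libraries, was 0 with quantile normalization and ran from 0 to 4 with each library left out, and the count without overlap ran from 1 to 4. Groups with a library fewer separate more easily, and the share of all genes without overlap was not counted there. This range of 1 to 4 therefore cannot be set against the 14.4% found with all libraries. Over the whole table, limma called 0 genes, DESeq2 213, and limma without 1 library 0 to 962, with 808 to 4838 genes at an unadjusted p below 0.05; the cause was not tested. Upper quartile scaling turned the balance of the latter to 942 higher and 1046 lower. Vegfa, Pecam1, Cdh5, Emcn, Ehd3 and Plvap kept their sign in all 13 alternatives, though not their size: Emcn ran from -0.18 to -0.038 and Ehd3 from 0.0011 to 0.12 with each library left out. With each library left out, the log2 fold change ran from -0.022 to 0.073 for Flt1, -0.032 to 0.011 for Kdr, -0.0096 to 0.025 for Tek and -0.24 to 0.016 for Eng. Tek was at -0.018 with upper quartile scaling and -0.020 with quantile normalization.

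With a replicate block, limma called 6 genes of the table, and unadjusted p was below 0.05 for 2106 of 19176 genes, 1002 of them lower. It was below 0.05 for 0 of the 10 genes (Vegfa 0.0569), but for 7 of the 8 urothelium markers, all lower. Libraries with the same number correlated at -0.240, 0.304 and 0.155 for replicates 1, 2 and 3, in deviations from the group means over 17249 genes, so the numbers were not taken to pair mice. Precision is limited by 3 libraries per group and, for Kdr, Tek and Pecam1, by counting error close to or above the spread of a group; the 10 genes had 484 to 5803 reads per library.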
